A study of Danio rerio with 8 samples.

Results

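The genes described here encode the eukaryotic initiation factors (eIFs) and elongation factors (eEFs), the proteins that start and extend protein synthesis on cytosolic ribosomes. They were chosen by gene symbol, taking every symbol that starts with eif or eef and a digit and leaving out the eIF2 kinases. On the array 116 of 43603 probes met this rule, and they stood for 72 genes of the 15548 with a symbol. These were 3 eif1, 11 eif2, 16 eif3, 21 eif4 and 4 eif5 genes, the single gene eif6, and 16 eef genes. Of 81 genes in a RefSeq table that fit the rule, 9 had no probe here, among them eif1, eif1b, eif4ebp1, eif4ebp3 and eef1e1.

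Initiation begins when eIF2 bound to GTP brings the initiator tRNA to the small ribosomal subunit, where eIF1, eIF1A and the large eIF3 complex hold it open for an mRNA. The cap-binding complex eIF4F, made of the cap-binding protein eIF4E, the scaffold eIF4G and the helicase eIF4A, loads the mRNA, eIF5 triggers GTP hydrolysis on eIF2, and eIF5B joins the large subunit. In elongation eEF1A delivers each aminoacyl-tRNA, the eEF1B complex recharges eEF1A with GTP, and eEF2 moves the ribosome along. The liver makes most plasma proteins and yolk precursors, so it is a tissue with heavy protein synthesis.

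The RNA came from zebrafish (Danio rerio) liver in a series made to pick temperature-responsive probes for a custom array. The 7 RNA samples were 2 at 18 °C, 2 at 26 °C and 2 at 34 °C, all labelled day 28, and 1 at 26 °C labelled day 4. The labels name no strain, sex, age or other treatment, and they call the replicates biological without saying how many fish each one holds. In all, 8 Agilent arrays compared them in a loop, with a Cy5- and a Cy3-labelled sample on each, so that neighbouring arrays share a sample.

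The deposited values are log ratios of the dyes and were taken to be log2, as the sources used here do not state the base. From the 8 arrays each gene was given a level in each RNA sample, which is its log2 value relative to the mean of the 7 samples, and differences between groups are differences of these levels. A level compares samples for 1 gene and says nothing of how abundant that gene is beside another. Each deposited ratio was taken to be Cy5 divided by Cy3, the likely reading, although the sources used here do not state it. Were it the other way round, all signs below would flip. A gene was called where limma's adjusted p, over all 35434 features (genes, or single probes without a symbol), was below 0.05. In bulk tissue, fewer cells of a type and less RNA per cell cannot be told apart.

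Markers of cell types also differed between the samples. All 19 measured of 21 listed oocyte markers, among them genes of egg envelope proteins, had negative differences at 34 °C against 18 °C. Their median was -2.37. All 17 measured of 22 hepatocyte markers had positive differences, with a median of 1.58. The oocyte marker median was 0.86 and 1.73 in the samples at 18 °C, 0.033 and 0.084 at 26 °C, -1.22 and -0.77 at 34 °C, and -0.30 on day 4. The hepatocyte marker median was -0.43 and -1.08, then 0.099 and -0.41, then 1.24 and 0.30, and 0.010 on day 4. The 18 measured of 23 exocrine pancreas markers, of a gland that lies within and beside fish liver, had a median of -1.48 and -0.32 at 18 °C, 0.78 and -1.16 at 26 °C, 0.84 and 0.30 at 34 °C, and 0.93 on day 4. The 6 measured of 8 erythrocyte markers had a median difference of 0.029 at 34 °C against 18 °C. The part of these cell types in the differences below was not tested. Ratios have no zero, so whether a marker was absent could not be read from them.

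At 34 °C against 18 °C on day 28, eif3d and eif4ebp2 rose and eif4a2 fell. These were 3 of 72 genes, 2 higher and 1 lower, where 0.485% of all features passed as higher and 0.497% as lower. Of the 15548 features with a symbol, 128 passed as higher and 151 as lower. The eif3 genes stood mostly on 1 side, with 14 of 16 positive and a median difference of 1.11 on the log2 scale, while the median of all features was 0.00086. The median was 0.24 for eif1 (3 of 3 positive), 0.19 for eif2 (6 of 11), -0.090 for eif4 (8 of 21), 0.38 for eif5 (3 of 4) and -0.017 for eef (8 of 16). Without 1 sample or array the eif2, eif4 and eef medians crossed 0 and the eif5 median ran from 0.027 to 0.68. Over all 72 genes 42 differences were positive, against 50.6% of features.

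A wider view came from the unadjusted test. Of the 72 genes, 23 were higher and 11 lower with an unadjusted limma p below 0.05, where 6.14% and 7.71% of all features were. Of the 15548 features with a symbol, 1443 were higher and 2191 lower, and the 11 lower genes were near that share. Both directions together made 47.2% of the 72 genes, against 13.9% of all features and 23.4% of those with a symbol. The samples at 34 °C lay wholly above those at 18 °C for 32 genes (44.4%) and wholly below for 15 (20.8%). Of all features 18.3% and 18.6% did so, and of those with a symbol 19.9% and 26.8%. The share wholly below was thus under that of features with a symbol. Of the 23 genes, 11 were eif3 genes.

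**Figure D1:**
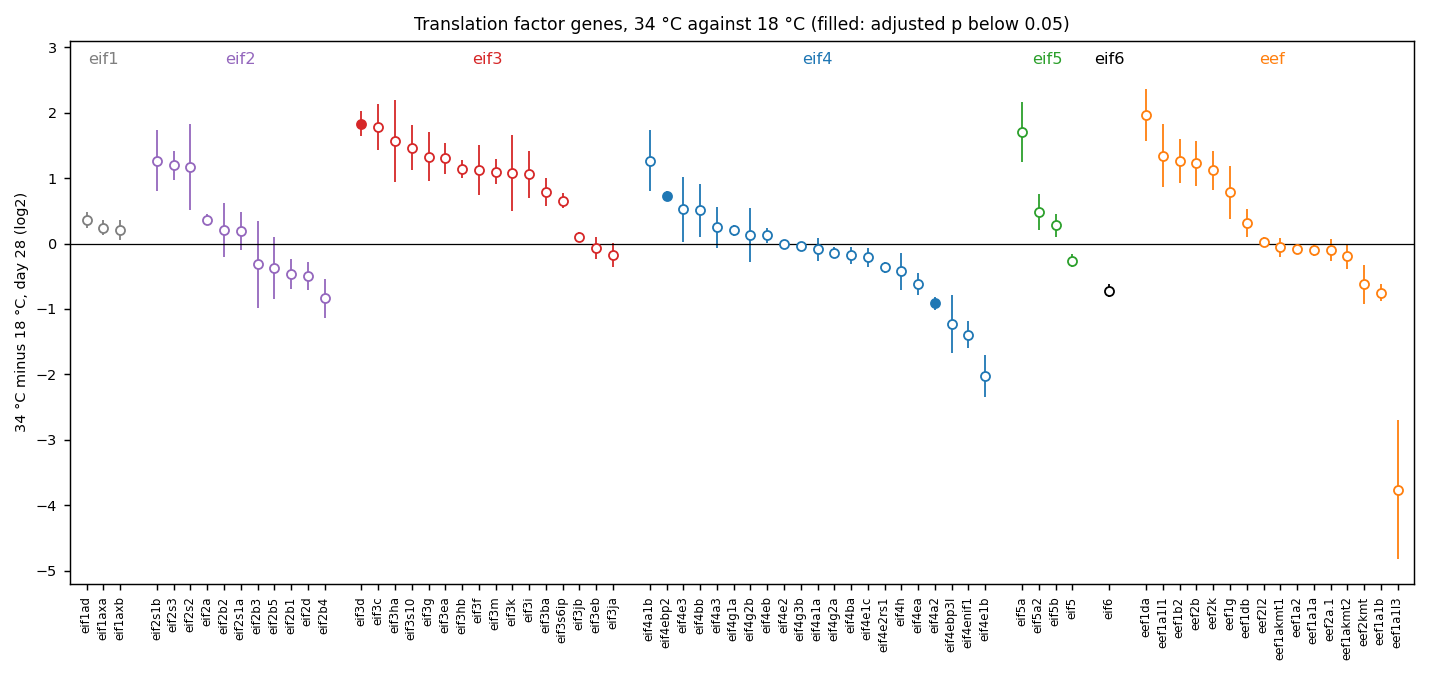
Difference between 34 °C and 18 °C on day 28 (vertical axis, log2) for each of the 72 genes, ordered by size within each family along the horizontal axis. Points are fitted differences, bars are limma's standard errors (n = 2 against 2), and filled points mark the 3 genes with an adjusted p below 0.05. Of the 16 eif3 genes 14 lie above 0, while the eif4 and eef genes spread to both sides.

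The 3 calls rested on few samples. All 3 were lost without any 1 sample of day 28, where a group then holds 1 sample. Without 1 sample, whose arrays still entered the levels, the differences ran from 1.65 to 2.01 for eif3d and 0.65 to 0.81 for eif4ebp2. For eif4a2 they ran from -1.04 to -0.79. Without 1 array, with the levels fitted again, the ranges were wider for eif3d (1.04 to 2.77), eif4ebp2 (0.59 to 0.90) and eif4a2 (-1.06 to -0.74). All 3 calls were also lost without any 1 of the 8 arrays. There 0 genes passed, except that eif3ea passed without the array of replicate 2 at 26 °C and replicate 1 at 34 °C. Of all features 348 passed with every array and 0 to 246 without 1 array, so calls fell over all features and not in these genes alone.

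The eIF3 complex is the largest initiation factor and gathers the small subunit, the initiator tRNA and the mRNA. Its subunit eIF3d can itself bind the cap of some mRNAs. The eif3d levels were -0.59 and -0.95 at 18 °C, -0.55 and -0.21 at 26 °C, 0.91 and 1.21 at 34 °C, and 0.18 on day 4. Both 34 °C samples lay above all others. The difference of 1.83 ± 0.19 (SE, n = 2 against 2) was a 3.55-fold rise at 34 °C against 18 °C (limma, adjusted p = 0.045), and its 2 probes gave 1.49 and 2.17.

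Next to it stood eif3c, a core subunit, with levels of -0.84 and -0.51 at 18 °C, -0.0063 and -0.55 at 26 °C, 1.55 and 0.67 at 34 °C, and -0.31 on day 4. Replicate 1 at 34 °C was the highest and both 18 °C samples were among the lowest. The difference was 1.78 ± 0.36, and it did not pass (limma, adjusted p = 0.112). The gene eif3hb, 1 of the copies of core subunit h, had levels of -0.59 and -0.90 at 18 °C, -0.087 and 0.11 at 26 °C, 0.48 and 0.29 at 34 °C, and 0.69 on day 4. Its 6 samples of day 28 stood in the order of temperature with no overlap. Its difference of 1.14 ± 0.14 lay just outside the threshold (limma, adjusted p = 0.054).

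Other core subunits gave differences of similar size that did not pass. They were 1.47 ± 0.35 for eif3s10 (subunit a, under an older name), 1.56 ± 0.62 for eif3ha, 1.12 ± 0.38 for eif3f, 1.101 ± 0.19 for eif3m and 1.07 ± 0.58 for eif3k. The older-named eif3s6ip, subunit l, had a smaller one of 0.65 ± 0.12. In the module of subunits b, g and i, which works in scanning, the differences were 0.79 ± 0.22 for eif3ba, 1.33 ± 0.37 for eif3g and 1.06 ± 0.36 for eif3i. Adjusted p-values of these 9 genes by limma ran from 0.086 for eif3m to 0.590 for eif3k.

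The remaining 3 eif3 genes lay near 0. Subunit j, which binds the complex loosely, has a pair of genes, with -0.17 ± 0.18 for eif3ja and 0.10 ± 0.082 for eif3jb. The other was a copy of subunit e. The eif3ea levels were -0.37 and -0.50 at 18 °C, -0.15 and -0.57 at 26 °C, 1.14 and 0.59 at 34 °C, and -0.13 on day 4, and both 34 °C samples lay above all the rest. The eif3eb levels were -0.040 and -0.0086 at 18 °C, 0.017 and 0.019 at 26 °C, -0.35 and 0.16 at 34 °C, and 0.21 on day 4, and the sample at 34 °C with replicate number 1 was the lowest. The differences were 1.301 ± 0.23 and -0.073 ± 0.17, and neither passed (limma, adjusted p = 0.095 and 0.941). The difference between the copies was not tested, and the sign of eif3eb turned without some arrays or samples (-0.41 to 0.33).

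**Figure D2:**
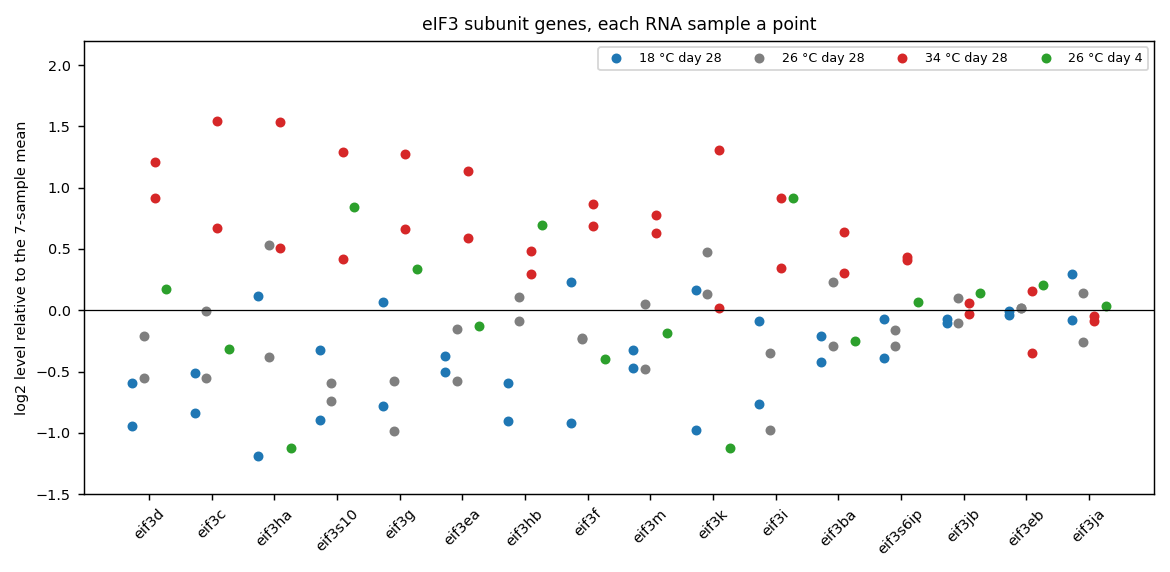
Levels of the 16 eif3 genes (vertical axis, log2 relative to the mean of the 7 RNA samples), 1 point per RNA sample, with genes in order of their difference between 34 °C and 18 °C. For 13 of the 16 genes both red points (34 °C) lie above both blue points (18 °C), as for 18.3% of all features, and the points of eif3jb, eif3eb and eif3ja crowd around 0.

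The samples' own medians over the eif3 genes were -0.38 and -0.37 at 18 °C, -0.094 and -0.29 at 26 °C, 0.68 and 0.43 at 34 °C, and 0.050 on day 4. The hepatocyte marker medians of 1.24 and 0.30 at 34 °C were also the highest of the 7 samples. The same split of the eif3 genes was seen on single arrays, before any fit. On the array of replicate 1 at 34 °C (Cy5) and replicate 1 at 18 °C (Cy3), 14 of 16 eif3 ratios were positive, with a median of 1.3. With the 34 °C sample in Cy3 the sign turned over, as on the arrays of replicate 1 at 26 °C (median -0.84) and replicate 2 at 26 °C (median -1.04), each against replicate 1 at 34 °C, where 14 of 16 were negative. The split was smaller on the array of the day 4 sample against replicate 2 at 34 °C, with 11 of 16 negative and a median of -0.58. Replicate 2 at 34 °C against replicate 2 at 26 °C gave 13 of 16 positive (median 1.00). Where 18 °C and 26 °C samples of day 28 met, the median was 0.049 for replicate 2 at 26 °C over replicate 2 at 18 °C. It was -0.17 for replicate 2 at 18 °C over replicate 1 at 26 °C. Replicate 1 at 18 °C over the day 4 sample gave 11 of 16 negative (median -0.31). The eif3 median at 34 °C against 18 °C stayed between 0.79 and 1.13 without any 1 sample or array.

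**Figure D3:**
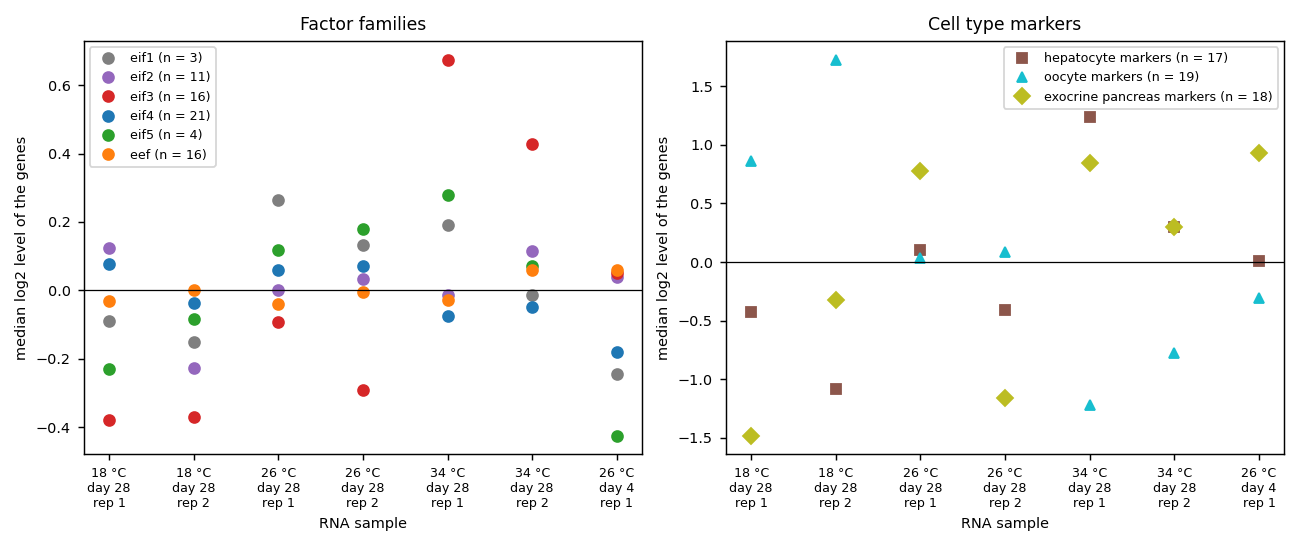
Median level of the genes of each family (left) and of each cell type marker list (right) in each of the 7 RNA samples along the horizontal axis (vertical axes, log2 relative to the mean of the 7 samples, on different scales). The eif3 median is highest in both 34 °C samples, at 0.68 and 0.43, where the hepatocyte median is also above 0 and the oocyte median below 0.

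The eif2 genes belong to more than 1 complex. All 4 genes for the subunits of eIF2 itself had positive differences at 34 °C against 18 °C, with a median of 1.19, and 1 of 5 genes for eIF2B, the complex that recharges eIF2 with GTP, did, with a median of -0.38. None of them passed. The gamma subunit gene eif2s3, which encodes the part that binds GTP and the initiator tRNA, had levels of -0.69 and -0.28 at 18 °C, 0.087 and -0.43 at 26 °C, 0.69 and 0.72 at 34 °C, and -0.096 on day 4. Both 34 °C samples were above all others, and the difference was 1.19 ± 0.22 (limma, adjusted p = 0.098).

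For the alpha subunit, the one that stress kinases phosphorylate, eif2s1b had levels of -0.23 and -0.65 at 18 °C, 0.44 and -0.58 at 26 °C, 1.28 and 0.38 at 34 °C, and -0.64 on day 4. Its 34 °C samples lay above its 18 °C samples but not above every other sample. The difference was 1.27 ± 0.47, and that of the other copy, eif2s1a, was 0.19 ± 0.29. The beta subunit gene eif2s2 had a difference of 1.18 ± 0.66, with levels of -1.62 in replicate 2 and 0.21 in replicate 1 at 18 °C. This spread within 1 temperature was among the widest of all 72 genes.

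Among the eIF2B genes, eif2b4, the delta subunit, had levels of 0.12 and 0.52 at 18 °C, 0.0012 and 0.35 at 26 °C, -0.16 and -0.88 at 34 °C, and 0.050 on day 4. The 34 °C samples were the lowest. Its difference was -0.84 ± 0.29, and it did not pass (limma, adjusted p = 0.314). The others were -0.47 ± 0.23 for eif2b1, -0.38 ± 0.48 for eif2b5, -0.32 ± 0.66 for eif2b3 and 0.21 ± 0.42 for eif2b2. The genes eif2a and eif2d, whose proteins can bring initiator tRNA to the ribosome apart from eIF2, gave 0.36 ± 0.081 and -0.50 ± 0.22. The eif2 family median turned negative, down to -0.21, when some samples or arrays were left out.

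Of the eif4 genes, eif4a2 and eif4ebp2 passed on opposite sides. The helicase eIF4A unwinds mRNA leaders, and eif4a2 is 1 of its genes. The eif4a2 levels were 0.54 and 0.58 at 18 °C, -0.39 and -0.29 at 26 °C, -0.48 and -0.23 at 34 °C, and 0.27 on day 4. Both 18 °C samples lay above every other sample, and the 34 °C samples overlapped with the 26 °C samples. At 34 °C against 18 °C the gene fell by 1.89-fold (difference -0.92 ± 0.097, limma, adjusted p = 0.046), and its 3 probes ran from -1.08 to -0.67.

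A second helicase gene, eif4a1b, went the other way in value. Its levels were -0.56 and -0.15 at 18 °C, -0.34 and -0.23 at 26 °C, 1.59 and 0.23 at 34 °C, and -0.54 on day 4, so the highest sample was replicate 1 at 34 °C and replicate 2 at 34 °C stood far below it. The difference of 1.27 ± 0.47 did not pass (limma, adjusted p = 0.343). It came mostly from 1 of 2 probes, since these gave 2.35 and 0.19. The remaining helicase genes gave -0.090 ± 0.18 for eif4a1a and 0.25 ± 0.32 for eif4a3, whose protein sits in the exon junction complex rather than in eIF4F. Both values turned sign when some samples or arrays were left out.

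The cap-binding genes held the largest negative difference of the family. The gene eif4e1b, a cap-binding copy known from germ cells and early embryos of zebrafish, had levels of 0.61 and 1.53 at 18 °C, 0.25 and 0.35 at 26 °C, -0.81 and -1.11 at 34 °C, and -0.83 on day 4. The 6 samples of day 28 stood in falling order of temperature without overlap, and the day 4 sample was as low as the 34 °C ones. The difference of -2.03 ± 0.32 (4.07-fold lower) did not pass (limma, adjusted p = 0.075). Oocyte marker medians fell in the same order, also without overlap on day 28. All 6 samples stood in this order for 2 of the 72 genes and 3.77% of all features. The group means alone did so for 14 of the 72 genes and 21.5% of all features. The oocyte marker median was -0.30 on day 4, where eif4e1b was at -0.83.

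The main cap-binding gene pair was split in value, with -0.62 ± 0.17 for eif4ea and 0.12 ± 0.11 for eif4eb. The eif4ea levels were -0.046 and 0.45 at 18 °C, 0.35 and 0.28 at 26 °C, -0.44 and -0.39 at 34 °C, and -0.20 on day 4, with both 34 °C samples lowest. Neither passed (limma, adjusted p = 0.205 and 0.816). The others were -0.21 ± 0.15 for eif4e1c, 0.52 ± 0.50 for eif4e3, -0.0078 ± 0.067 for eif4e2, whose protein represses translation of some mRNAs, and -0.36 ± 0.087 for eif4e2rs1, a gene related to it by name.

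Scaffold genes had small differences, and none passed. The values were 0.21 ± 0.084 for eif4g1a, -0.035 ± 0.064 for eif4g3b, -0.14 ± 0.082 for eif4g2a and 0.13 ± 0.42 for eif4g2b. The error of eif4g2b was larger than its value, and the probes of eif4g2a and of eif4g2b differed in sign. The genes eif4g1b and eif4g3a had no probe here. The eIF4G2 protein lacks the part of the scaffold that binds eIF4E. The helicase cofactors gave -0.18 ± 0.13 for eif4ba, 0.51 ± 0.40 for eif4bb and -0.43 ± 0.29 for eif4h.

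The 4E-binding proteins block eIF4E until the kinase mTOR phosphorylates them. The eif4ebp2 levels were -0.31 and -0.47 at 18 °C, -0.0024 and 0.11 at 26 °C, 0.36 and 0.33 at 34 °C, and -0.018 on day 4. The 6 samples of day 28 rose with temperature without overlap. The rise at 34 °C against 18 °C was 1.66-fold (difference 0.73 ± 0.074, limma, adjusted p = 0.042). It came from 1 of 2 probes, since these gave 1.45 and 0.015, and the second probe stayed within 0.1 of 0 in every sample.

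The other binding protein gene measured, eif4ebp3l, had levels of 0.23 and 0.82 at 18 °C, 0.18 and 0.42 at 26 °C, -0.11 and -1.29 at 34 °C, and -0.24 on day 4. Replicate 2 at 34 °C was far below the rest. The difference of -1.23 ± 0.44 was opposite in sign to that of eif4ebp2 and did not pass (limma, adjusted p = 0.330).

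The gene eif4enif1 encodes 4E-T, which carries eIF4E into the nucleus and into particles of stored, silent mRNA. Its levels were 0.78 and 0.67 at 18 °C, -0.21 and -0.11 at 26 °C, -0.36 and -0.98 at 34 °C, and 0.22 on day 4. These also stood in falling order of temperature without overlap on day 28. The difference was -1.39 ± 0.21 (limma, adjusted p = 0.070), with 1 probe at -2.71 and the other at -0.074.

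**Figure D4:**
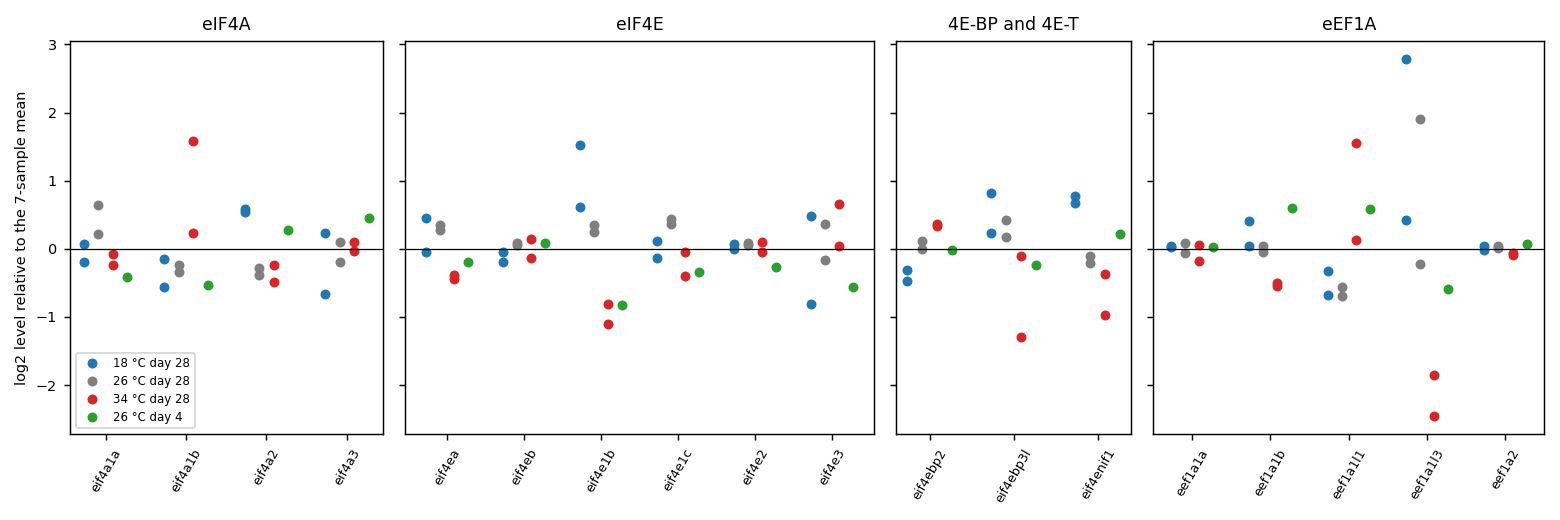
Levels (vertical axis, log2 relative to the mean of the 7 RNA samples) of the genes for the helicase eIF4A, the cap-binding eIF4E, the eIF4E-binding proteins and the tRNA carrier eEF1A, 1 point per RNA sample. Both 18 °C samples are highest for eif4a2 and eif4e1b, both 34 °C samples are highest for eif4ebp2, and eef1a1l3 spans the widest range, from -2.46 to 2.79.

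The smaller families were eif1, eif5 and eif6. For eIF1A, which acts on the small ribosomal subunit, eif1axa gave 0.24 ± 0.12 and eif1axb 0.20 ± 0.15, and the related eif1ad gave 0.36 ± 0.12. The largest eif5 value belonged to eif5a, whose hypusine-bearing protein helps ribosomes past difficult peptide bonds. Its levels were -0.70 and -0.18 at 18 °C, 0.14 and -0.98 at 26 °C, 1.59 and 0.96 at 34 °C, and -0.82 on day 4, with both 34 °C samples highest and 26 °C replicate 2 lowest. The difference of 1.71 ± 0.46 did not pass (limma, adjusted p = 0.193).

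Its paralog eif5a2 had a mean difference of 0.49 ± 0.28 over 4 probes that differed in sign, from -0.80 to 2.31. The GTPase-activating factor gene eif5 gave -0.26 ± 0.099 with probes of opposite sign, and eif5b, the subunit-joining GTPase, 0.28 ± 0.18. The gene eif6 encodes a factor that keeps the large ribosomal subunit from joining too early. Its levels were 0.29 and 0.20 at 18 °C, 0.26 and 0.37 at 26 °C, -0.36 and -0.59 at 34 °C, and -0.17 on day 4. The 34 °C samples were the lowest, and the difference of -0.72 ± 0.097 lay outside the threshold (limma, adjusted p = 0.062). All 3 of its probes were negative, from -1.41 to -0.30.

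Among the elongation factors, the 4 genes of the eEF1B exchange complex were all positive at 34 °C against 18 °C, with a median of 1.02, and none passed. The delta subunit gene eef1da had levels of -0.74 and -1.03 at 18 °C, 0.43 and -0.63 at 26 °C, 1.32 and 0.85 at 34 °C, and -0.21 on day 4. Its 6 samples of day 28 stood in rising order of temperature without overlap, and its difference of 1.97 ± 0.39 was the largest positive one of the 72 genes (limma, adjusted p = 0.112). The rest were 1.26 ± 0.34 for eef1b2, 0.78 ± 0.40 for eef1g and 0.31 ± 0.21 for eef1db.

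The 5 genes for eEF1A itself ranged from the most negative value of the set to a positive one. The eef1a1l3 levels were 0.42 and 2.79 at 18 °C, -0.22 and 1.91 at 26 °C, -1.85 and -2.46 at 34 °C, and -0.59 on day 4. The 34 °C samples were far below all others, yet the replicates at 18 °C and those at 26 °C lay 2.37 and 2.12 apart. The difference of -3.76 ± 1.07 did not pass (limma, adjusted p = 0.215). It rests on 1 probe.

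By contrast in value, eef1a1l1 had levels of -0.33 and -0.68 at 18 °C, -0.69 and -0.56 at 26 °C, 0.13 and 1.55 at 34 °C, and 0.58 on day 4. The highest was replicate 2 at 34 °C, and the 34 °C replicates lay 1.43 apart. The difference was 1.34 ± 0.49 (limma, adjusted p = 0.332). Another copy, eef1a1b, had levels of 0.41 and 0.038 at 18 °C, 0.047 and -0.052 at 26 °C, -0.50 and -0.54 at 34 °C, and 0.60 on day 4, with both 34 °C samples lowest and a difference of -0.75 ± 0.13 (limma, adjusted p = 0.093). The last pair stayed near 0, with -0.098 ± 0.098 for eef1a1a and -0.089 ± 0.042 for eef1a2. Which of these like copies each probe detects was not tested, as no probe sequence was used here.

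For the translocase eEF2, eef2b gave 1.23 ± 0.35, eef2a.1 -0.10 ± 0.17 and eef2l2 0.025 ± 0.081. The kinase that inhibits eEF2, eef2k, had levels of -1.001 and -0.21 at 18 °C, -0.025 and -0.23 at 26 °C, 0.34 and 0.70 at 34 °C, and 0.42 on day 4. Its 34 °C samples lay above its 18 °C samples, with a difference of 1.12 ± 0.30 (limma, adjusted p = 0.189). The methyltransferase genes gave -0.059 ± 0.15 for eef1akmt1, -0.20 ± 0.20 for eef1akmt2 and -0.62 ± 0.30 for eef2kmt.

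The comparisons with 26 °C share the 26 °C samples with each other and the other samples with the comparison above, so their values are set side by side only. At 34 °C against 26 °C 0 of the 72 genes passed, where 0% of all features did (lowest limma adjusted p = 0.0818). With an unadjusted limma p below 0.05 there were 17 higher and 9 lower genes, where 2.95% and 5.83% of features were. Of the 15548 features with a symbol, 664 were higher and 1661 lower. The eif3 median was 0.93 with 14 of 16 positive, and the other families had medians from -0.069 for eif4 and eif5 to 0.060 for eif2. The smallest p-values were those of eif3d (1.44 ± 0.19), eif3s6ip (0.65 ± 0.12) and eif3ea (1.23 ± 0.23) on the positive side. On the negative side stood eif6 (-0.79 ± 0.097), eif4e2rs1 (-0.38 ± 0.087) and eif4ea (-0.73 ± 0.17).

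At 18 °C against 26 °C 0 of the 72 passed, where 0.00282% of all features did. Unadjusted, 2 were higher and 5 lower, where 1.74% and 2.69% of features were. Of the 15548 features with a symbol, 508 were higher and 708 lower. The eif3 median was -0.099. On the positive side eif4a2 (0.90 ± 0.097), eif4enif1 (0.88 ± 0.21) and eif4e1b (0.77 ± 0.32) had the smallest p-values, and eif4ebp2 (-0.44 ± 0.074), eif3hb (-0.76 ± 0.14) and eif1axa (-0.41 ± 0.12) had them on the negative side. For eif4a2 the value against 26 °C was 0.90 at 18 °C, with all 3 probes positive, and -0.017 at 34 °C. At 34 °C this was a mean over probes that differed in sign (0.42, -0.40 and -0.067). For eif3d the value against 26 °C was -0.39 at 18 °C and 1.44 at 34 °C.

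The group means stood in rising order from 18 °C over 26 °C to 34 °C for 30 of the 72 genes and in falling order for 14, against 22.3% and 21.5% of features. Of the 30, 11 were eif3 genes. The mean at 26 °C was the highest of the 3 for 20 genes and the lowest for 8, against 28.3% and 27.9% of features. All 6 samples stood in the order of temperature for eef1da, eif3d, eif3hb and eif4ebp2, rising, and for eif4e1b and eif4enif1, falling. These are 4 and 2 of 72, where 3.63% and 3.77% of features did so.

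**Figure D5:**
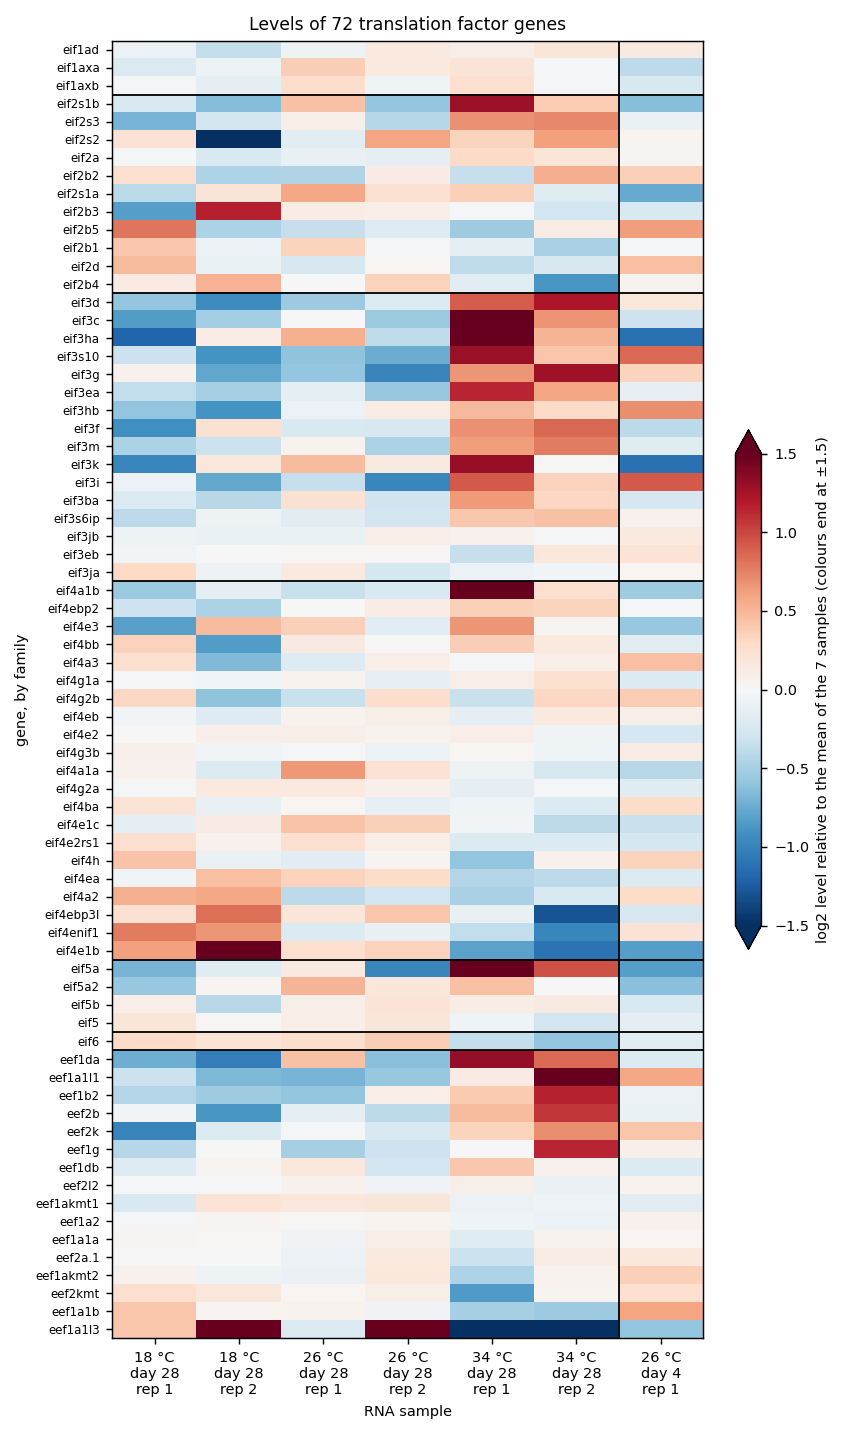
Levels of all 72 genes (rows, by family and in order of the difference between 34 °C and 18 °C) in the 7 RNA samples (columns), as log2 relative to the mean of the 7 samples, with colours ending at 1.5 on either side. The eif3 block is mostly blue at 18 °C and red at 34 °C, and the columns of 1 temperature differ for genes such as eif2s2, eif2b3 and eef1a1l3.

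The day 4 sample at 26 °C was compared with the 2 of day 28, on the assumption that it varies like the others. None of the 72 passed, where 0% of features did (lowest limma adjusted p = 0.645). Unadjusted, 5 were higher and 10 lower, where 2.52% and 4.21% of features were. The smallest p-values belonged to eif4a2 (0.61 ± 0.12), eif3hb (0.68 ± 0.17) and eef1a1b (0.60 ± 0.16) among positive values, and to eif1axa (-0.65 ± 0.14), eif6 (-0.49 ± 0.12) and eif4e2rs1 (-0.44 ± 0.11) among negative ones. Without the array of replicate 1 at 34 °C and 18 °C, or that of replicate 1 at 18 °C and day 4, the eif3hb value was -0.47. The eif3 genes did not share a side, from -1.42 for eif3k to 1.58 for eif3i, with a median of 0.16. Day and single sample cannot be told apart here.

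Genes around the factors were read from lists named for their roles. In mTOR signalling 14 of 15 genes were measured, 5 positive at 34 °C against 18 °C, with a median of -0.021, and rheb, the GTPase that switches mTOR on, fell. Its levels were 0.54 and 0.74 at 18 °C, -0.13 and -0.089 at 26 °C, -0.19 and -0.27 at 34 °C, and -0.60 on day 4. The 18 °C samples lay above all others, and the difference was -0.87 ± 0.080 (limma, adjusted p = 0.041). The call was lost without any 1 sample of day 28 or any 1 array, where the value ran from -1.36 to -0.45. The genes for mTOR and its partner raptor stayed near 0 (-0.024 ± 0.091 for mtor and 0.030 ± 0.11 for rptor). The eIF4E kinase gene mknk2a had a difference of -1.92 ± 0.42 that did not pass (limma, adjusted p = 0.135).

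Of 7 genes that help scanning or reinitiation 2 were positive, with a median of -0.11, and ddx3xb, a helicase that acts on structured leaders, fell. Its levels were 0.35 and 0.35 at 18 °C, 0.24 and 0.22 at 26 °C, -0.42 and -0.35 at 34 °C, and -0.40 on day 4. The 34 °C samples and day 4 were the lowest, and the difference was -0.73 ± 0.043 (limma, adjusted p = 0.028). Without any 1 array, or any 1 sample of day 28 except replicate 2 at 34 °C, it did not pass, and the value ran from -1.08 to -0.44. The paralog ddx3xa gave -0.11 ± 0.065.

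Of the poly(A)-binding proteins and partners 7 of 10 genes were measured and 0 passed, with 4 positive and a median of 0.057. The general copies pabpc1a and pabpc1b gave 1.26 ± 0.20 and 1.15 ± 0.20. Against them stood pabpc1l, known from vertebrate oocytes and early embryos, with levels of 0.81 and 1.42 at 18 °C, -0.0024 and -7.0e-05 at 26 °C, -1.17 and -0.61 at 34 °C, and -0.45 on day 4. Its 18 °C samples were the highest and its 34 °C samples the lowest, with a difference of -2.00 ± 0.27 (limma, adjusted p = 0.063). As for eif4e1b, the oocyte marker medians stood in the same falling order. All 6 samples of day 28 did so for 3.77% of all features, and the group means alone for 21.5%.

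None passed in the remaining lists. In the integrated stress response, 9 of 12 genes were measured and 3 were positive (median -0.22), with -1.02 ± 0.28 for atf4a, 0.92 ± 0.35 for atf4b and -0.85 ± 0.19 for the eIF2 kinase gene eif2ak3. Termination and rescue had 1 of 5 measured genes positive (median -0.0097), the release factor gene gspt1 at 0.57 ± 0.10. The hypusine and diphthamide enzymes, which modify eIF5A and eEF2, had 3 of 8 positive (median -0.040). The mitochondrial and selenocysteine factors had 3 of 10 positive (median -0.053). With an unadjusted limma p below 0.05 there were 2 higher and 2 lower genes in the stress response, 1 higher in termination, 0 among the modifying enzymes and 1 lower among the mitochondrial factors. Of all features 6.14% were higher and 7.71% lower, and of those with a symbol 23.4% were either. No list was tested against these shares, and with 5 to 10 genes in each the counts are given as values only.

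How much a difference could be resolved varied between genes. The standard error at 34 °C against 18 °C had a median of 0.217 over the 72 genes and 0.0622 over all features, and 71 of the 72 lay above the latter. Replicate 1 minus replicate 2 had an SD over the 72 genes of 0.684 at 18 °C, 0.457 at 26 °C and 0.547 at 34 °C. Of the 34 genes with more than 1 probe, 23 had probes of the same sign at 34 °C against 18 °C and 11 did not. Probes of the same sign could still differ in size, as for eif4a1b (0.19 and 2.35) and eif3ba (0.13 and 1.44). The 11 genes with probes of opposite sign were eef2a.1, eef2l2, eif1ad, eif3ja, eif4ba, eif4e2, eif4eb, eif4g2a, eif4g2b, eif5 and eif5a2.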

How the data were processed

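RNA of 7 zebrafish liver samples was measured on 8 Agilent 2-colour arrays. The authors deposited 1 normalized log2 ratio per probe and array. The submitters' processing notes name limma, without a version. Background correction, normalization method, spot filter, log base and ratio direction are each not given in the sources used here. Log2 was taken because the values ran from -8.96 to 8.03, while 16-bit signals allow a log10 ratio of at most 4.82. This range speaks against log10 only, so log2 stays an assumption, and the fold changes rest on it. There were no channel intensities, so a dim probe and an unchanged one look alike.

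Symbols came from the platform annotation, updated by Entrez ID or accession from a RefSeq table (GRCz12tu). A single symbol was found for 54.4% of 43603 probes, several for 0 and none here for 19886. Probes of 1 symbol were averaged, and each other probe stayed a feature of its own, for 35434 features in all.

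A level for each of the 7 RNA samples was fitted to the 8 ratios of a feature by least squares, with a dye term (1 residual degree of freedom). The 4 groups were then compared on the levels with limma (lmFit and eBayes, version 3.58.1 under R 4.3.3, with 3 residual and 1.63 prior degrees of freedom). Two-sided p-values were adjusted over all features (Benjamini-Hochberg, threshold 0.05). Errors after ± are limma's standard errors. They rest on 3 pairs of replicates and ignore that the levels share arrays. The number of arrays limits the precision. The steps were run on simulated data, as a check that planted differences came back in size and sign. This does not show how reliable the calls are.

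The genes, families and lists were chosen with earlier results of these data known. Named genes were those that passed, the 2 largest differences in each direction of each family, the 3 smallest p-values in each direction of each comparison, paralogs on opposite sides with 1 of them at an unadjusted p below 0.05, and eif4ebp genes, eif4e1b, eef2k and eif6. Other genes are given as values only. Alternatives were another scaling, centring, no dye term, 1 probe per gene, single probes, a filter on low ratios and the arrays fitted directly. Further ones were fewer groups, a replicate block, a robust prior, and leaving out each sample or array. A sample was left out of the group comparison only, and its arrays still entered the fit of the levels. An array was left out of that fit as well.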

Additional observations from a re-analysis of the deposited data

How the results depend on the processing

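The 3 calls at 34 °C against 18 °C were the result most open to processing. The count was 2 without a dye term, with a robust prior, with single probes and with the probe of widest range per gene, 1 with a replicate block, 5 with a filter on low ratios, and 0 after scaling the arrays to 1 spread or with 2 groups only. Fitting the arrays directly, as if those that share a sample were independent, gave 22, and 16 at 34 °C against 26 °C and 1 at 18 °C against 26 °C, where the sample levels gave 0. Without 1 sample or array the count ran from 0 to 3, and it was 0 in the other comparisons. Among all features, the number that passed also moved over the alternatives. It ran from 0 to 2994 at 34 °C against 18 °C, where the results above had 348. At 34 °C against 26 °C it ran from 0 to 1372, and at 18 °C against 26 °C from 0 to 29. Calls thus moved over all features and not in these genes alone. The replicate numbers are not stated to pair the samples, so the block is given only here. Correlations of replicate deviations were -0.151 for 18 and 26 °C, -0.133 for 18 and 34 °C and 0.415 for 26 and 34 °C. They cannot decide whether samples were paired, because the levels share arrays. Adjusted p-values of the 3 calls lay between 0.0424 and 0.0456, close to the threshold. The passing genes were not always those 3: they were eif4ebp2 and eif5 with single or widest probes and eif3i with the block. The rheb call was lost with scaling, with 2 groups only and with the block, and the ddx3xb call with scaling, with 2 groups only and with single or widest probes.

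The eif3 median of 1.11 was 1.25 with the widest probe, and 0.79 to 1.13 without 1 sample or array. The eif4 median was -0.037 after scaling. The eif5 median was 1.19 with the widest probe and 0.51 with single probes, the eef median 0.092 and 0.13, and the eif2 median -0.015 with the arrays fitted directly. Without 1 sample or array the medians ran from 0.14 to 0.34 for eif1, -0.21 to 0.35 for eif2, -0.31 to 0.12 for eif4, 0.027 to 0.68 for eif5 and -0.044 to 0.089 for eef. The causes were not tested.

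Signs were followed over the alternatives for the named genes only, so those of other genes may turn as well. Among the named genes the sign turned for 15 at 34 °C against 18 °C, with differences of up to 0.52 in size (eif4e3). It also turned for eif3hb on day 4. At 34 °C against 18 °C eif4a1a was 0.061 after scaling, and eif4e2 was 0.18 with single or widest probes and 0.023 with the arrays fitted directly. Without 1 sample or array the range crossed 0 for eef1a1a (-0.22 to 0.020), eef1a2 (-0.23 to 0.031), eef2a.1 (-0.37 to 0.13), eef2l2 (-0.067 to 0.12), eif1axa (-0.010 to 0.45), eif3eb (-0.41 to 0.33), eif3ja (-0.36 to 0.012), eif4a1a (-0.31 to 0.17), eif4a3 (-0.65 to 1.31), eif4e1c (-0.49 to 0.12), eif4e2 (-0.13 to 0.13), eif4e3 (-0.12 to 1.17), eif4eb (-0.022 to 0.29), eif5 (-0.69 to 0.10) and eif5a2 (-0.093 to 0.98). On day 4 against day 28 it did so for eif3hb (-0.47 to 2.04).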

Other observations

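Among the 72 genes, the widest gap between replicates of 1 temperature was in eef1a1l3 at 18 °C and at 26 °C (2.37 and 2.12). At 34 °C it was in eef1a1l1 (1.43). The largest gap at 18 °C, after eef1a1l3, was in eif2b3, an eIF2B subunit, where replicate 1 lay 1.99 below replicate 2. In eif2s2, the beta subunit of eIF2, replicate 1 lay 1.83 above replicate 2. At 26 °C eif5a and eef1da were higher in replicate 1 by 1.12 and 1.06. The same sample had the higher exocrine pancreas marker median, 0.78 against -1.16, and the higher hepatocyte marker median, 0.099 against -0.41. Its oocyte marker median was lower, 0.033 against 0.084. Whether these gaps are related was not tested. At 34 °C eif4a1b and eif3k were higher in replicate 1 by 1.35 and 1.29.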
